A study of Rattus norvegicus with 16 samples.

Results

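The genes of melatonin synthesis described here are the 4 that act in sequence on tryptophan and its products, Tph1, Ddc, Aanat and Asmt, and Gch1, which supplies a cofactor to the first step. Every probe set annotated to one of these symbols was taken, with no filter on intensity. The set has 8 of the 8740 non-control probe sets on the array and 5 of its 4736 named genes. Gch1 has 4 probe sets and each other gene has 1. Those of Aanat and Ddc and 2 of Gch1 end in _s_at, the maker's mark for probes that can match more than 1 transcript. A probe set is a group of short probes against one transcript, and its intensity is the brightness of the bound RNA in arbitrary units.

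The study measured total RNA of rat pineal gland and retina on 16 Affymetrix arrays of 8799 probe sets, 59 of them controls. The samples were titled by tissue, by hour 12 or hour 6, and by circadian time (CT) or Zeitgeber time (ZT). By convention CT is counted on the animal's own clock and ZT from the onset of light, but the sources used here do not give the lighting, the strain, the age or the number of animals behind each array. The pineal had 1 array each for CT12, ZT12, CT6 and ZT6, and the retina had 3 arrays for each of the same conditions, numbered 1 to 3. Nothing in the labels ties an array to an animal or pool of its own, so the p-values below describe the spread between these arrays only. The pineal ZT12 array was grouped by its title, which gives hour 12, whereas its description gives 6 h. All 4 pineal arrays carry a retinal source name, so their tissue was checked against marker genes. The source name is "brain, retina" for the pineal ZT12 array and for the retina arrays numbered 3 in every condition. It is "eye, retina" for all other arrays. Whether this label marks a separate set of arrays was not tested.

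In the first step tryptophan hydroxylase, encoded by Tph1, adds a hydroxyl group to tryptophan, and this needs tetrahydrobiopterin, whose synthesis begins with GTP cyclohydrolase, encoded by Gch1. Aromatic amino acid decarboxylase, encoded by Ddc, then yields serotonin. Arylalkylamine N-acetyltransferase, encoded by Aanat, acetylates serotonin, and acetylserotonin O-methyltransferase, encoded by Asmt, completes melatonin. In the rat pineal gland Aanat is known for its strong night-time rise under noradrenergic and cyclic AMP control, and the retina also makes melatonin, in photoreceptors.

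In RefSeq on the build GRCr8, Gch1 lies at chr15:22884006-22917412, Tph1 at chr1:106293695-106314628, Ddc at chr14:90592304-90682830, Aanat at chr10:102323647-102330639 and Asmt at chr12:21418477-21423336. All 5 genes matched a RefSeq promoter entry. The 250 bases before the start site are printed for Aanat, the gene that differed by hour in the pineal, and for Asmt, which was high in the pineal at both hours. Capitals mark TGACG, the core of the cyclic AMP response element, and TAATC, the core bound by the photoreceptor and pineal factors CRX and OTX2, each on either strand. The Aanat window is chr10:102326073-102326322 on the plus strand, inside the annotated span of the gene, and the Asmt window is chr12:21423337-21423586 on the minus strand.
Aanat: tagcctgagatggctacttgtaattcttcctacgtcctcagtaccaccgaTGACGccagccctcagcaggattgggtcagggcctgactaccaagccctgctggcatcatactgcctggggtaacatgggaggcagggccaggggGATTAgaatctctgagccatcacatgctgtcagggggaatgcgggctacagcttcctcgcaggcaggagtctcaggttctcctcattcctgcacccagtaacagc
Asmt: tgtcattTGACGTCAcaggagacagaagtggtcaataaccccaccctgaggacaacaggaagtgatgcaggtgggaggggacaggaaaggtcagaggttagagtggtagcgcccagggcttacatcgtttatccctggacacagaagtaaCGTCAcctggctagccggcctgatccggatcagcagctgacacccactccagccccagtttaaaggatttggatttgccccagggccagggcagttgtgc

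The windows were searched on both strands for these motifs, for TGACGTCA, the full palindrome around the cyclic AMP core, and for CACGTG, the E-box of clock factors. Aanat held the cyclic AMP core once, 200 bases before the start site, and the CRX and OTX2 core once on the other strand, 105 bases before it. Asmt held the full palindrome at 243 bases before its start site, which contains the core on both strands, and a further core on the other strand at 100 bases. Tph1 held the CRX and OTX2 core at 230 bases and Gch1 held the cyclic AMP core at 106 bases. The 3 Ddc windows held none of the motifs, and the E-box was in no window of the 5 genes. Among 33469 RefSeq promoter windows of the same length, 1.59% held the full palindrome, 18.2% its core, 20.5% the CRX and OTX2 core and 5.59% the E-box. These matches describe letters only, and no binding was measured.

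Before the comparisons, the arrays were checked for composition. Chrna3, a nicotinic receptor subunit abundant in pineal cells, lay between 8196 and 15333 on the pineal arrays and between 321 and 1302 on the retina arrays. The retinal ganglion cell gene Sncg lay between 123 and 211 in pineal, against 860 to 24819 in retina, so both genes separated the arrays by the tissue in their titles. They were named after their values were seen, and their lists were less even. Of 4 other pinealocyte genes on the array, Chrna3 included, 1 was higher in pineal, 1 lower and 2 were not called, with a median of -0.09 on the log2 scale. The lower one was Syt1, a synaptic vesicle gene, at 34.9 to 247 in pineal, against 324 to 5449 in retina, while Drd4 and Rorb overlapped. Of 5 ganglion cell genes, 4 were lower in pineal and 1 was not called. In the same tissue test 34.5% of all probe sets were higher and 26.5% lower in pineal. Retina CT12 array 1 stood apart. Its median Spearman correlation with the other retina arrays was 0.837, against 0.944 to 0.962 for the others. Its summed intensity over 5 rod genes was 15868, against 208838 to 365654 on the other retina arrays, and its sum over 12 lens genes was 3848143, against 53830 to 2557121. Comparisons of the CT12 retina group with another retina group are therefore given with and without that array where they turn on it.

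Pineal arrays showed far more RNA of the melatonin synthesis genes than retina arrays. All 5 genes were higher in pineal, by about 13-fold for Aanat and by 275-fold for Tph1, and the excess of Tph1, Gch1, Ddc and Asmt was seen on every pineal array. Aanat was 51.4-fold higher at hour 12 but 3.44-fold higher at hour 6.

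For Gch1, the cofactor enzyme, the probe set brightest over the 16 arrays (M58364_at) read 68027, 65673, 66065 and 75047 in pineal at CT12, ZT12, CT6 and ZT6. In retina it read between 174 and 584, with a median of 358. The lowest pineal value was 112 times the highest retina value, so the tissues were far apart. Tph1, the entry enzyme (X53501cds_at), read 20515 at CT12, 18774 at ZT12, 25790 at CT6 and 27405 at ZT6 in pineal. Its 12 retina values ran from 13.7 to 247, with a median of 59.3. The lowest pineal array was 76.1 times the highest retina array, again with no overlap.

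Ddc, the decarboxylase (M84648mRNA_s_at), read 17753 at CT12, 12578 at ZT12, 11249 at CT6 and 10152 at ZT6 in pineal. Retina values were between 39.6 and 117, with a median of 63.0. The 4 pineal arrays all exceeded the retina arrays, by at least 86.7 times. Asmt, the last enzyme (L78306_at), read 11357 at CT12, 11363 at ZT12, 14977 at CT6 and 12737 at ZT6 in pineal. Its retina values ran from 68.8 to 689, with a median of 499. The gap between the tissues was narrower than for Tph1, Gch1 and Ddc but still complete, at 16.5 times between the nearest arrays.

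Aanat, the acetyltransferase (U38306_s_at), behaved differently. In pineal it read 20036 at CT12 and 12652 at ZT12, but only 432 at CT6 and 579 at ZT6. Its retina values ran from 111 to 525, with a median of 226. The pineal CT6 array therefore lay below the brightest retina array, ZT12 array 1, in the deposited intensities. After quantile normalization the tissues no longer overlapped.

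**Figure D1:**
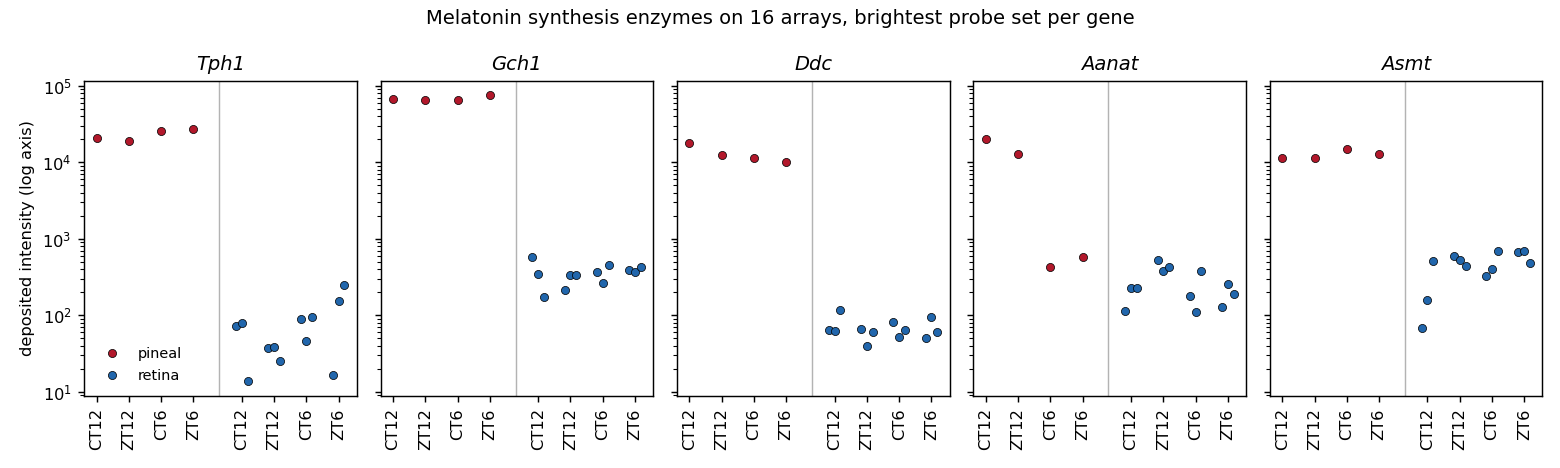
Deposited intensity (log axis) of each gene's probe set with the highest mean over the 16 arrays, on every array, by condition, with pineal arrays (1 per condition) left of the line and retina arrays (3 per condition) right of it. Tph1, Gch1, Ddc and Asmt form a high pineal band at all 4 conditions, whereas pineal Aanat sits at 12652 and 20036 at hour 12 and at 432 and 579 at hour 6.

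The tissue difference was tested with limma on log2(intensity + 16), within conditions, over all 16 arrays, with Benjamini-Hochberg adjustment over 8740 probe sets. All 8 probe sets passed an adjusted p of 0.05 and all were higher in pineal. The tissues differ widely, and 61.1% of all probe sets passed in either direction, 34.5% as higher and 26.5% as lower in pineal. The median difference was 5.35 over the 8 probe sets on the log2 scale, against 0.22 over all probe sets. No overlap between tissues was seen for 7 of the 8 after normalization, against 37.4% of all probe sets, 21% with pineal higher. Fewer cells of a type and less RNA per cell cannot be told apart in whole-tissue RNA.

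By gene, Tph1 was higher in pineal by 8.10 ± 0.41 on the log2 scale (SE, 275-fold, adjusted p = 1.02e-09). Gch1 was higher by 7.71 ± 0.27 (210-fold, adjusted p = 2.98e-11), and Ddc by 7.13 ± 0.17 (140-fold, adjusted p = 1.91e-12). Asmt differed by 4.84 ± 0.37 (28.7-fold, adjusted p = 6.84e-08). Aanat had the smallest and least certain difference of the 5 genes, 3.72 ± 0.62 (13.2-fold, 95% interval 5.27 to 33.1, adjusted p = 0.000121). No detection call comes with the values, so for the dimmest retina readings these folds depend on the offset of 16. They are on the log2(intensity + 16) scale, which understates the change of low genes.

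The 4 Gch1 probe sets disagreed in size while sharing a direction. E03424cds_s_at read 3622, 3331, 5449 and 4494 in pineal at CT12, ZT12, CT6 and ZT6, against 28.1 to 163 in retina, a difference of 5.87 ± 0.34 (adjusted p = 4.1e-09). The probe set rc_AI043643_at read 2422, 2559, 2400 and 2688 in pineal, against 285 to 756 in retina, a difference of 2.62 ± 0.17 (adjusted p = 1.01e-08). The dimmest in pineal, rc_AA943102_s_at, read 294, 206, 436 and 372 in pineal, against 22.7 to 463 in retina, and its ranges overlapped. Its difference of 1.55 ± 0.40 had an adjusted p of 0.00402, which became 0.184 with the hour 12 arrays alone, 0.0517 with the CT arrays alone and 0.0514 with the ZT arrays alone.

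**Figure D2:**
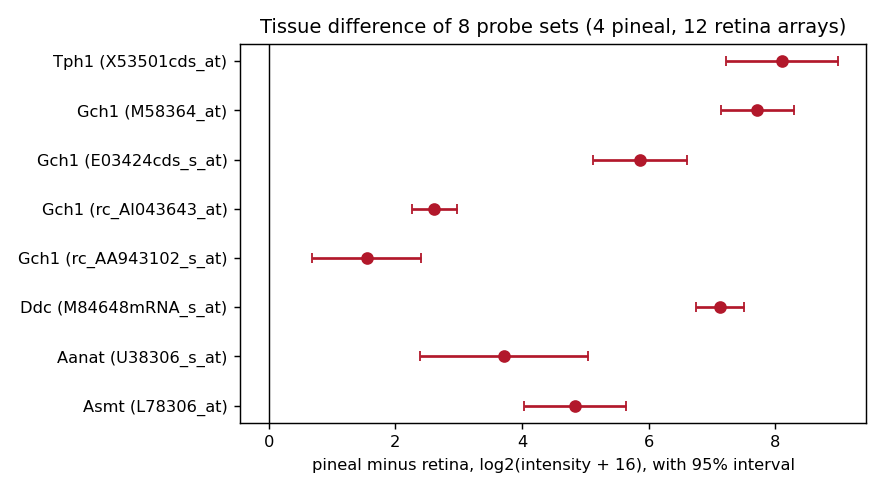
Pineal minus retina difference of each of the 8 probe sets on the log2(intensity + 16) scale, from limma over 4 pineal and 12 retina arrays, with 95% intervals. All 8 lie right of 0, from 1.55 for the dimmest Gch1 probe set to 8.10 for Tph1, and the interval of Aanat spans 2.40 to 5.05.

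Within one hour the pineal excess of Aanat was far from constant. With the hour 12 arrays alone it was 5.68 ± 0.46 on the log2 scale (51.4-fold, adjusted p = 0.000112). With the hour 6 arrays alone it was 1.78 ± 0.41 (3.44-fold, adjusted p = 0.00792). For the other genes the values at the 2 hours lay closer together. Tph1 gave 8.24 at hour 12 and 7.90 at hour 6, Gch1 7.83 and 7.58, Ddc 7.37 and 6.90, and Asmt 5.07 and 4.60. Between regimes Asmt moved most after normalization, with 5.37 (41.3-fold) in the CT arrays alone and 4.31 (19.9-fold) in the ZT arrays alone. In single pineal arrays Asmt differed by only -0.0007 between CT12 and ZT12 and by 0.23 between CT6 and ZT6. In retina it read 68.8 and 158 on CT12 arrays 1 and 2. The CT subset was not refitted without retina CT12 array 1. Aanat gave 4.08 under CT and 3.37 under ZT, and Tph1, Gch1 and Ddc each moved by less than 0.2.

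Hour 12 was next set against hour 6 in the pineal. Of the 8 probe sets, Aanat alone differed by 1 or more on the log2 scale. The CT12 array read 46.4 times the CT6 array, and the ZT12 array 21.8 times the ZT6 array. On the log2(intensity + 16) scale these are differences of 5.49 under CT and 4.41 under ZT, each the second largest increase of all 8740 probe sets. The largest under both regimes was Slc15a1, an oligopeptide transporter, at 6.28 under ZT and still more under CT.

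The other enzymes moved by less than 1 on the log2 scale between single pineal arrays. Ddc was higher at hour 12 by 0.66 under CT and by 0.31 under ZT. Asmt differed by -0.40 under CT and -0.16 under ZT, and Tph1 by -0.33 and -0.55. The 4 Gch1 probe sets lay between -0.59 and 0.04 under CT and between -0.81 and -0.07 under ZT. Of the 8 probe sets, 1 reached a difference of 1 or more upward under CT as well as ZT and 0 did so downward. The shares among all probe sets were 1.86% upward and 1.69% downward.

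**Figure D3:**
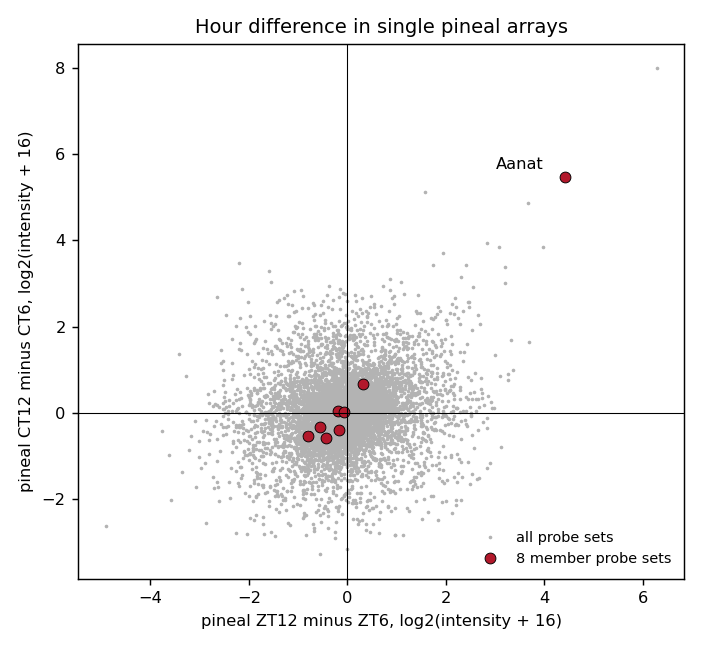
Hour 12 minus hour 6 in single pineal arrays on the log2(intensity + 16) scale, ZT on the horizontal axis and CT on the vertical axis, for all probe sets (grey) and the 8 of the melatonin genes (red). Aanat lies at 4.41 and 5.49, and the other 7 lie within 1 of 0 on both axes.

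With 1 pineal array per condition, limma was fitted to all 16 arrays with regime as an additive term, so the spread came mostly from retina arrays. In the pineal, 1 of the 8 probe sets passed, Aanat, against 0.824% of all probe sets in either direction, 0.446% upward and 0.378% downward. Aanat rose by 4.40 ± 0.59 on the log2 scale (21.1-fold, 95% interval 8.68 to 51.5, adjusted p = 0.00279). The adjusted p was 0.0755 without the pineal CT6 array, 0.0763 without the pineal CT12 array and 0.201 with the 4 pineal arrays alone, where the difference was 4.95. The fit of the 4 pineal arrays alone used deposited intensities and had no regime term, so its 4.95 is not on the scale of the 4.40. In the fit to all 16 arrays, Ddc came next with 0.46 ± 0.28 (adjusted p = 0.779), and the adjusted p of the remaining 6 was 1. Between single pineal arrays of one hour, Aanat was 1.58 times as bright at CT12 as at ZT12 and differed by -0.41 on the log2 scale between CT6 and ZT6, with no replicate to test either.

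Genes on the marker lists were also compared between the pineal hours, and only some of them differed. Of 12 mast cell genes, 10 are on the array and none was listed at 0. Their summed intensity was 53398 at CT12 and 48857 at ZT12, against 7280 at CT6 and 6897 at ZT6, and 3192 to 4400 in retina. Nearly all of this was Fcer1a, an IgE receptor subunit, at 49005 and 44493 at hour 12 (CT12 and ZT12), against 3401 and 2802 at hour 6 (CT6 and ZT6). Between hours 2 of the 10 genes passed, against 0.824% of all probe sets, Fcer1a with a rise of 3.69 (limma adjusted p = 0.00885) and Hdc, whose values stand with the aromatic amine enzymes. The Fcer1a call was lost without any single pineal array (adjusted p from 0.0821 to 0.0837) and with the 4 pineal arrays alone (0.201). Without Fcer1a the sum was 4393, 4364, 3879 and 4095 at CT12, ZT12, CT6 and ZT6. Of the 8 genes other than Fcer1a and Hdc, 4 were higher at hour 12, from 0.04 for Tpsb2 to 0.83 for Mcpt1, 4 were lower, from -0.03 for Ms4a2 to -1.08 for Cpa3, and 0 passed (limma, unadjusted p from 0.194 to 0.967). The sum of 3 blood genes was 30829 at CT12 and 53677 at ZT12, against 93894 at CT6 and 154221 at ZT6. For the 4 pinealocyte genes other than the members, the sum was 52570 to 59137 at hour 12, against 13832 to 21771 at hour 6. Of these 4 genes 3 were higher at hour 12, with a median limma difference of 0.996, and 0 passed. The part of these cells in the Aanat difference was not tested.

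Setting the hour effect of the pineal against that of the retina gave the same gene. The pineal effect exceeded the retina effect for Aanat by 3.93 ± 0.68 on the log2 scale (limma interaction, adjusted p = 0.0247), 1 of 8 members, against 0.446% of all probe sets. The call rests on thin replication. It was lost without all retina arrays numbered 3 (adjusted p = 0.124), without the pineal CT6 or CT12 array (0.171 each), without the pineal ZT6 array (0.0666) or the pineal ZT12 array (0.0678). It also fell just outside 0.05 without retina CT6 array 1 (0.0516), CT6 array 2 (0.0512) or CT12 array 2 (0.0509). The difference stayed between 3.43 and 4.47 in every alternative run. For the other 7 probe sets the tissue difference in hour effect ranged from -0.65 to 0.53.

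**Figure D4:**
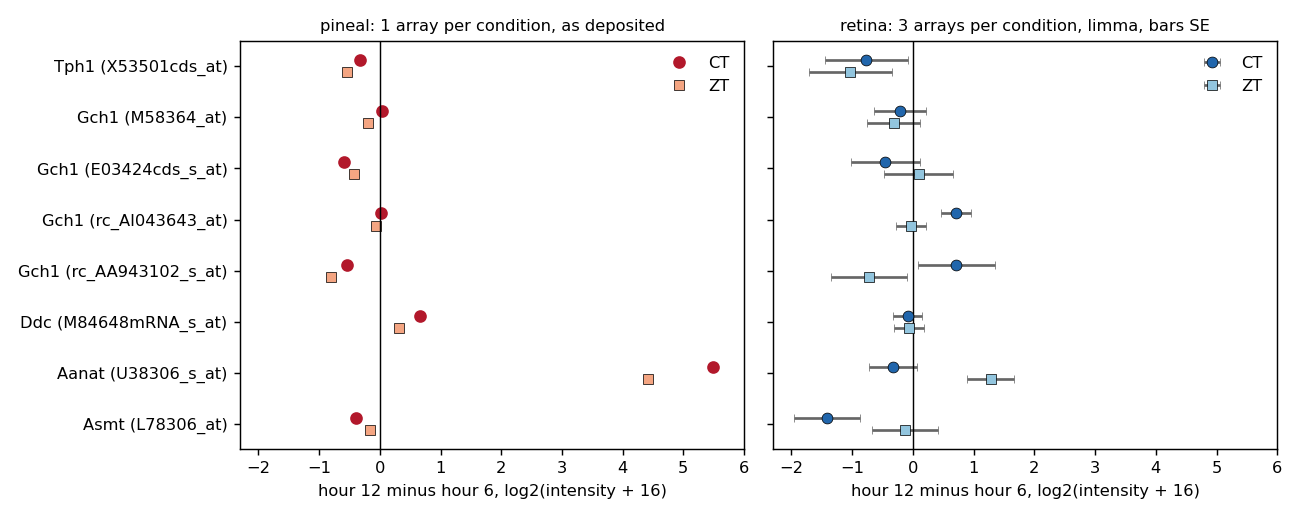
Hour 12 minus hour 6 for each of the 8 probe sets on the log2(intensity + 16) scale, under CT (circles) and ZT (squares): pineal at left from single arrays, retina at right from limma with SE bars over 3 arrays per condition. In pineal, Aanat alone lies beyond 1, at 5.49 and 4.41; in retina its values are -0.33 under CT and 1.28 under ZT, neither past the adjusted threshold.

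In the retina, no melatonin gene passed the adjusted test in any comparison of hour or regime, and Aanat at ZT12 was the clearest pattern. Aanat read 115, 226 and 225 at CT12 (arrays 1 to 3), 525, 378 and 423 at ZT12, 176, 111 and 375 at CT6, and 128, 258 and 189 at ZT6. Its mean was 189 ± 64.1 at CT12, 442 ± 75.3 at ZT12, 221 ± 138 at CT6 and 192 ± 64.8 at ZT6 (SD, n = 3 each). The 3 ZT12 arrays were the 3 brightest of the 12. In order of level ZT12 came first, while CT6, ZT6 and CT12 differed from each other by less than their spread.

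**Figure D5:**
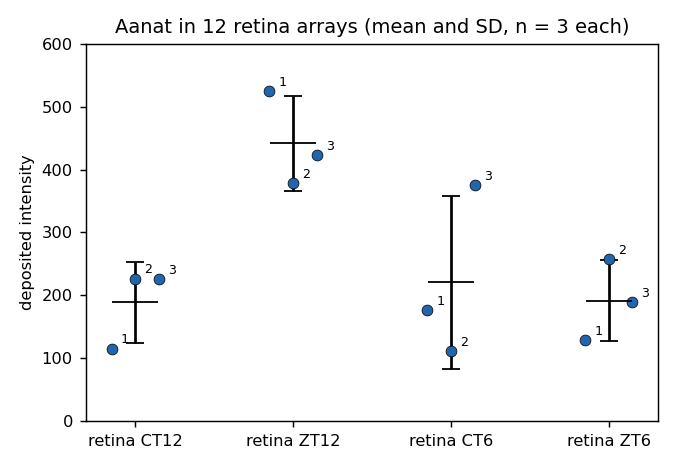
Deposited Aanat intensity on the 12 retina arrays by condition, with array numbers, group means (horizontal lines) and SD bars (n = 3 each). The ZT12 arrays lie between 378 and 525, and the arrays of the other conditions between 111 and 375.

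At ZT12 retinal Aanat exceeded ZT6 by 1.28 ± 0.39 on the log2 scale (2.43-fold, 95% interval 1.34 to 4.41). The groups did not overlap, which was also true of 20.3% of all probe sets in that comparison, and the adjusted p was 0.461. Under CT the difference between hours 12 and 6 was -0.33 ± 0.39 (adjusted p = 0.637). CT12 was below ZT12 by 1.39 ± 0.39 without overlap (adjusted p = 0.178), where 23% of all probe sets did not overlap. Over both regimes the hour difference was 0.48 ± 0.27 (adjusted p = 0.464), and the CT hour effect minus the ZT hour effect was -1.61 ± 0.55 (adjusted p = 0.329). The Aanat differences that were nominally clear thus did not survive adjustment over the whole array.

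Asmt in the retina was lowest at CT12, where it read 68.8, 158 and 518 on arrays 1 to 3. It read 594, 529 and 444 at ZT12, 323, 401 and 689 at CT6, and 674, 686 and 479 at ZT6. The means were 248 ± 238 at CT12, 523 ± 75.4 at ZT12, 471 ± 193 at CT6 and 613 ± 116 at ZT6 (SD, n = 3 each). The CT12 group was thus widely spread, and array 3 resembled the other conditions.

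Asmt differed by -1.41 ± 0.55 on the log2 scale between CT12 and CT6 (adjusted p = 0.226) and by -1.62 ± 0.55 between CT12 and ZT12 (adjusted p = 0.201). After normalization the CT12 arrays all lay below the ZT12 arrays, as 23% of all probe sets had no overlap there, although as deposited CT12 array 3 (518) exceeded ZT12 array 3 (444). Single CT12 arrays decided these values. Without array 1 they were -0.82 (adjusted p = 0.474) and -1.02 (0.378), and without array 3 they were -2.12 (0.0344) and -2.32 (0.0257). Leaving out array 3 also raised the calls over all probe sets, to 288 against 0 for CT12 against CT6 and to 368 against 3 for CT12 against ZT12. The order of Asmt over the 3 CT12 arrays was also that of the rod genes, whose sums were 15868, 208838 and 285938 on arrays 1 to 3. Lens sums ran the opposite way, at 3848143, 2557121 and 1012929. The part of these cells in the Asmt values was not tested.

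The other retina values were low and uneven. Tph1 averaged 55.6 ± 36.4 at CT12, 33.9 ± 7.40 at ZT12, 76.5 ± 27.0 at CT6 and 139 ± 116 at ZT6, where single arrays read 16.5, 153 and 247. Ddc averaged 81.0 ± 31.2 at CT12, 55.1 ± 13.8 at ZT12, 66.2 ± 14.98 at CT6 and 68.8 ± 23.7 at ZT6. Gch1 M58364_at averaged 369 ± 206 at CT12, 296 ± 68.5 at ZT12, 363 ± 94.2 at CT6 and 392 ± 28.2 at ZT6 (SD, n = 3 each). In retina the brightest Gch1 probe set was rc_AI043643_at, at 656 ± 100.2 at CT12, 484 ± 35.6 at ZT12, 388 ± 125 at CT6 and 523 ± 63.0 at ZT6. After normalization the groups of these 3 genes overlapped in every retina comparison, although in the deposited intensities Gch1 M58364_at lay between 217 and 337 at ZT12, below 365 to 421 at ZT6. Likewise Gch1 rc_AI043643_at lay between 555 and 756 at CT12 as deposited, above 454 to 523 at ZT12 and 285 to 527 at CT6. After normalization 20.3% of all probe sets had no overlap between ZT12 and ZT6. That share was 23% between CT12 and ZT12 and 21.9% between CT12 and CT6. No such share was computed for the deposited intensities, so whether these separations are particular to Gch1 was not tested.

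The count of members past an adjusted p of 0.05 (limma) was 0 of 8 in each of the 7 retina comparisons. Over all probe sets the share was 0.0686% for ZT12 against ZT6, 0% for CT12 against CT6, 0% for CT6 against ZT6 and 0.0343% for CT12 against ZT12. It was 0.0915% for hour 12 against hour 6 over both regimes, 0% for CT against ZT over both hours and 0.0114% for the difference between the CT and ZT hour effects. At an unadjusted p under 0.05 the members counted 1, 2, 0, 3, 0, 1 and 1 of 8 in the order given, where 7.07%, 19.7%, 4.73%, 18.6%, 12.3%, 9.27% and 12.2% of all probe sets did so. The 3 between CT12 and ZT12 were Aanat, Asmt and the dim Gch1 probe set rc_AA943102_s_at, at 1.44 ± 0.63 (adjusted p = 0.262). The 2 between CT12 and CT6 were Asmt and Gch1 rc_AI043643_at, at 0.71 ± 0.24 (adjusted p = 0.212).

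The wider pathway was read from gene lists, with the probe set brightest over the 16 arrays standing for each gene. For every list, the shares to set beside the tissue counts are those over all probe sets. These were 34.5% higher and 26.5% lower in pineal. Among 5 tetrahydrobiopterin genes on the array, which include Gch1, 4 were higher in pineal than in retina, 0 were lower and 1 did not pass, with a median difference of 0.58 on the log2 scale against 0.22 over all probe sets. Beside Gch1, Pts, the second enzyme of the cofactor's synthesis, was higher by 1.15 ± 0.15 (limma adjusted p = 1.46e-05). Spr, which completes it, was higher by 0.58 ± 0.22 (adjusted p = 0.0335), a call lost in the deposited values (0.19, adjusted p = 0.394) and without the pineal CT6 (0.0714), ZT12 (0.105) or CT12 array (0.106) or retina ZT12 array 1 (0.0508). The Spr call was also lost with the hour 12 (limma adjusted p = 0.176), CT (0.232) or ZT arrays alone (0.0556). Qdpr, which recycles the cofactor, was higher by 0.53 ± 0.13 (adjusted p = 0.00335). That call was lost with the hour 12 arrays alone (0.38, adjusted p = 0.196) and with the CT arrays alone (0.57, adjusted p = 0.113). Gch1 had the largest difference of its list, and none of the 5 passed between pineal hours.

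Of 12 genes of serotonin and monoamine handling, 6 were higher in pineal, 3 lower and 3 did not pass, with a median of 0.40. Maob, a monoamine oxidase, read 17222, 18765, 13844 and 14689 in pineal at CT12, ZT12, CT6 and ZT6, against 434 to 920 in retina. That is a difference of 4.55 ± 0.16 (adjusted p = 3.4e-11). Maoa, the other monoamine oxidase, was lower in pineal by 0.90 ± 0.13 (1.87-fold, adjusted p = 4.38e-05). Slc7a5, a carrier of large neutral amino acids, was lower by 2.08 ± 0.42, and the aldehyde dehydrogenase Aldh2 by 2.20 ± 0.41. Between pineal hours 0 of the 12 passed, where 0.824% of all probe sets did.

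Among 8 other enzymes of aromatic amines, 3 were higher in pineal, 1 lower and 4 did not pass, with a median of 0.21. Hdc, which makes histamine, was higher by 2.23 ± 0.32 (adjusted p = 3.19e-05), and Nat1, an arylamine N-acetyltransferase, by 1.60 ± 0.24 (adjusted p = 6.05e-05). Th, the tyrosine hydroxylase of catecholamine cells, was lower by 0.97 ± 0.22 (adjusted p = 0.00176). With the CT arrays alone the Th call was lost (adjusted p = 0.138). Hdc was the 1 gene of this list that passed between pineal hours. It read 345 at CT12 and 514 at ZT12, against 108 at CT6 and 126 at ZT6, a rise of 1.85 ± 0.30 (adjusted p = 0.0103). The call was lost without any single pineal array (adjusted p from 0.0585 to 0.155), without all retina arrays numbered 3 (0.0938) and with the 4 pineal arrays alone (0.312).

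Downstream of synthesis, 3 of 4 genes for melatonin receptors and breakdown were higher in pineal, 0 lower and 1 not called, with a median of 0.99. Cyp1b1, a cytochrome P450 able to metabolize melatonin, read 1986, 7694, 4490 and 7087 in pineal at CT12, ZT12, CT6 and ZT6, against 62.8 to 407 in retina (4.46 ± 0.35, adjusted p = 7.74e-08). Cyp1a2, the main liver enzyme of melatonin breakdown, was higher by 1.41 ± 0.42 (adjusted p = 0.00982), a call lost in the deposited values (0.088) and without the pineal ZT6 array (0.0536). It was also lost with the hour 12 (0.0973), hour 6 (0.0685) or CT arrays alone (0.124). The melatonin receptor gene Mtnr1a was dim in both tissues. In pineal it read 166 at CT12 and 68.1 at ZT12, against 436 at CT6 and 306 at ZT6, a difference between hours of -1.72 ± 0.49 that did not pass (adjusted p = 0.183).

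Of 23 genes with a role in controlling Aanat, 7 were higher in pineal, 8 lower and 8 did not pass, with a median of -0.16. These counts lie near the shares over all probe sets, 34.5% higher and 26.5% lower. Adra1b, an alpha-1 adrenergic receptor, was higher by 2.23 ± 0.21 (adjusted p = 4.97e-07), and Prkar2b, a regulatory subunit of cyclic AMP-dependent kinase, by 2.99 ± 0.26 (adjusted p = 2.58e-07). Creb1, the cyclic AMP response factor, was lower by 2.49 ± 0.19 (adjusted p = 4.81e-08). Ywhae, a 14-3-3 protein of the family that binds phosphorylated AANAT, was lower by 2.31 ± 0.12 (adjusted p = 1.88e-09).

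Between pineal hours 1 of these 23 passed. Per2, a period gene of the circadian clock, read 1725 at CT12 and 1045 at ZT12, against 43.8 at CT6 and 67.9 at ZT6, a rise of 4.48 ± 0.36 (adjusted p = 0.000177), which held without any single array but had an adjusted p of 0.279 with the 4 pineal arrays alone. Crem, whose inducible repressor product damps cyclic AMP responses, read 2844 at CT12 and 2501 at ZT12, against 932 at CT6 and 1135 at ZT6. Its difference of 1.27 ± 0.28 did not pass (limma adjusted p = 0.056). Of 16 single-array omissions only 1 passed, that of retina CT12 array 1 (0.0062). Crem stayed uncalled in 19 of 25 alternatives, over which the difference ran from 1.06 to 1.47. The phosphodiesterase Pde4d differed by 1.85 ± 0.55 (adjusted p = 0.203). Nr4a1 (U17254_g_at) did not pass either, though single pineal arrays differed by 3.01 under CT and 3.21 under ZT. A Dusp1 probe set not used for the list (S81478_s_at) differed by 3.39 under CT and 3.19 under ZT. In the fit, 13 of the 23 differences were above 0. The list's median difference between hours was 0.07, against -0.02 over all probe sets. Between retina hours no gene of any of these lists passed.

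Genes whose normalized levels ran most like Aanat over the 16 arrays, among 4377 probe sets, were Fhip2a, Errfi1, Fcer1a, Pcna and Homer1, with Pearson r of 0.978, 0.945, 0.943, 0.932 and 0.921. Fhip2a read 46560 at CT12 and 36170 at ZT12, against 8540 at CT6 and 7846 at ZT6, in pineal. The nearest to Asmt were Cacna2d1, Cdh22, Mfn2, Eed and Acly, with r of 0.991 for the first and 0.987 for the last. For Ddc they were Ivd, Tomm20, Scp2, Hspd1 and Nup88 (0.996 to 0.993), and for Gch1 Becn1, Snx4, Ufsp2, Dlat and Tomm20 (0.994 to 0.991). For Tph1 they were Fra10ac1, Gch1, Grin2c, Dzip3 and Nme1 (0.985 to 0.982). These values share the split into 4 pineal and 12 retina arrays, which alone gives a high r, so they are a description of pattern with no test.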

How the data were processed

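Total RNA of 4 pineal and 12 retina samples was measured on single-colour arrays. The deposited intensity values are linear, 1 per probe set and array. How the authors summarized, background-corrected and scaled them is not given in the sources used here, and no detection call was used. Array medians were 671.3 to 858.4 in retina and 531.6 to 576.3 in pineal. The number of arrays limits the precision.

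Intensities were quantile normalized over the 12 retina arrays for retina comparisons and over all 16 for comparisons with pineal, an offset of 16 was added, and log2 was taken. Differences between single pineal arrays used the deposited intensity. Limma 3.58.1 in R 4.3.3 was fitted to all 8740 non-control probe sets with no intensity filter, since a filter on retinal intensity would remove members. P-values were two-sided and Benjamini-Hochberg adjusted over all 8740, with a threshold of 0.05. Retina fits had 4 group means and 8 residual degrees of freedom. The tissue fit had condition as a covariate, and the fit for pineal hours had tissue by hour and tissue by regime. The fits were tested on simulated data.

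Symbols came from the platform annotation. Of the non-control probe sets 7006 carry 1 symbol, 308 several and 1426 none, and several or none gave no name. Names and positions came from RefSeq on GRCr8. Within each list the genes named were up to 4 with the smallest p in the comparison. For likeness, the 5 probe sets with the highest r were named, among those with 1 symbol and a mean intensity at or above the 40th percentile. No gene's probe set used for likeness reached that percentile in the retina, so no likeness within the retina is given. Gene names that the rules did not give (Slc15a1, Chrna3, Syt1, Drd4, Rorb, Sncg, Cpa3, Ms4a2, Tpsb2, Mcpt1, Nr4a1, Dusp1) were chosen after their values were seen. The members and gene lists were chosen with earlier results of these data known.

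Alternatives were offsets of 1 and 64, deposited values, a common median, the 40th percentile filter, a trended robust prior, array weights, the compared groups alone, subsets by hour or regime, a replicate block by title number, and leaving out each array or all retina arrays numbered 3. A fit of the 4 pineal arrays alone was added after seeing the data. It used deposited intensities without quantile normalization, with hour as its only term.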

Additional observations from a re-analysis of the deposited data

Results flagged for a closer look

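The hour effects of 4 genes differed between pineal and retina in the limma interaction test, among the melatonin genes and the lists examined. Aanat had a larger hour 12 minus hour 6 difference in pineal than in retina, by 3.93 on the log2 scale (adjusted p = 0.0247). Per2, the clock gene, did so by 3.82 (adjusted p = 0.00203), Fcer1a, the IgE receptor subunit, by 4.32 (adjusted p = 0.0157), and Hdc, the histamine-forming enzyme, by 1.82 (adjusted p = 0.0415). The pineal side rests on 2 arrays per hour in each of these, so the retina arrays supply most of the spread. Of 16 single-array omissions, 16 kept the call for Per2, 12 for Fcer1a, 9 for Aanat and 3 for Hdc. Without all retina arrays numbered 3 the adjusted p was 0.124 for Aanat, 0.0706 for Per2, 0.0944 for Fcer1a and 0.268 for Hdc. Hdc kept its call in 5 of 23 alternatives and lost it with an offset of 1 (0.0764), as deposited (0.0877), at a common median (0.0885) and with the trended robust prior (0.116). Fcer1a also missed the threshold without any single pineal array (adjusted p from 0.0725 to 0.0756).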

How the results depend on the processing

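Of 228 counts of members recomputed under the alternatives, 211 equalled the reported count, 11 fell to 0 and 2 became 1. The other 4, all for pineal against retina, were 7 in place of 8, with the hour 12, CT or ZT arrays alone and with the 40th percentile filter, which left 7 to test. Of 1233 single values, 1145 kept direction and call, 76 lost and 8 gained the call and 4 changed direction, all of Mtnr1a. All 8 probe sets remained past the threshold for pineal against retina when any single array was left out. For pineal hour 12 against hour 6 the count was 0 to 1 over the single-array omissions, and 0 with the 4 pineal arrays alone. For the pineal hour effect minus the retina hour effect it was 0 to 1 over the omissions, and 0 without all retina arrays numbered 3. For retina CT12 against CT6 and CT12 against ZT12 it was 0 to 1 (1, Asmt, without CT12 array 3). Mtnr1a, not called between tissues (0.30), changed sign as deposited (-0.10), with the hour 12 arrays (-0.57) or ZT arrays alone (-0.0817), and ranged from -0.0898 to 0.74 over single-array omissions. The causes were not tested. Tissue scaling moved the median of all probe sets, which was 0.22 after quantile normalization, -0.07 as deposited and 0.39 at a common median. The members' tissue differences after quantile normalization ran from 1.55 to 8.10. The smallest, of Gch1 rc_AA943102_s_at, was 1.12 at its lowest over the alternatives. Over all probe sets the pineal hour comparison called 72, but 199 without retina CT12 array 1, 108 with array weights, 25 without all retina arrays numbered 3 and 0 with the 4 pineal arrays alone. The interaction called 39, but 100 without retina CT12 array 1, 23 as deposited and 0 without all retina arrays numbered 3. With a replicate block by array number, the counts of members in the 7 retina comparisons were 0 each, and those over all probe sets were 2 for ZT12 against ZT6, 1 for CT12 against ZT12 and 0 for the others. Same-numbered pairs of retina arrays correlated at -0.172 to 0.210 (4 of 18 above 0.1). Differently numbered pairs correlated at -0.199 to 0.220 (3 of 36 above 0.1), and 5 of 12 arrays correlated best with their own number. Whether same-numbered arrays share an animal, a pool or a batch cannot be told from these values. The retina arrays numbered 3 share their source name with the pineal ZT12 array and with no other array. The part of that label in the lost calls was not tested. Dim retina signal, an unknown background and 1 pineal array per condition limit what small differences can be seen.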
